A study of Mus musculus with 16 samples.

Results

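Germ cell genes that are also transcribed in mouse embryonic stem (ES) cells were examined in 16 RNA-seq libraries. The set has 10 genes, chosen by name: Dppa3, Dppa4, Dppa5a, Dazl, Ddx4, Mael, Stk31, Sycp3, Tex101 and Prdm1. All 10 have a row in each of the 3 deposited tables, which list 24320 genes (Pml table) and 24394 genes (arsenite and Trim33 tables).

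The libraries form 8 groups of 2, all labelled as the E14Tg2a.IV ES cell line of strain C57BL/6, cultured feeder-free with serum and leukemia inhibitory factor (the growth protocol mentions the CCE line as well). The Pml table compares untreated wild-type cells with untreated Pml knockout cells, and PML is the scaffold protein of PML nuclear bodies. The arsenite table compares untreated wild-type cells with wild-type cells given 200 µM sodium arsenite, an oxidative stressor, for 2 h. The Trim33 table holds cells labelled WT or Trim33 KO, each given either 50 ng/ml activin A or 10 µM SB431542 for 2 h. TRIM33 is a chromatin reader that joins activated SMAD2 and SMAD3, activin A activates these SMADs, and SB431542 blocks the receptor kinase that does so. The labels do not say how either knockout was made, whether it is 1 clone, or whether libraries of the same group are independent cultures. The p-values below therefore measure only the spread between these libraries. The tables were normalised separately, in FPKM for Pml and in RPKM for the others (both are scaled for gene length and for the size of the library), so tests were made only within a table.

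The labels were checked against the targeted genes before anything else. In the Trim33 table, Trim33 was at 20.1 and 23.5 RPKM in the libraries labelled WT with activin A and at 2.53 and 2.79 in those labelled KO with activin A. With SB431542 it went against the labels, at 2.94 and 2.44 RPKM in the libraries labelled WT and at 18.3 and 24.6 in those labelled KO. Libraries are therefore called by their labels throughout, and no direction with SB431542 can be read as an effect of losing Trim33. Pml itself measured 49.8 and 45.1 FPKM in wild-type libraries, against 32.0 and 33.5 for the Pml knockout, so its RNA was lower but not lost (-0.52 ± 0.07 on the log2(value + 1) scale, limma adjusted p = 4.89e-04). Which part of either gene was deleted is not stated in the labels. The Y-linked gene Eif2s3y also separated the same groups, at 18.4 ± 3.11 FPKM in Pml wild type against 0.927 ± 0.247 in the knockout (SD, n = 2). In the Trim33 table it was at 39.7 ± 1.9 RPKM with the WT label and activin A, 0.0325 ± 0.0460 with the KO label and activin A, 39.3 ± 0.994 with the KO label and SB431542, and 0.104 ± 0.0553 with the WT label and SB431542. Its part in the differences below was not tested. Of 10 ES cell markers, none was listed at 0 in any group. This cannot check the ES cell identity given in the labels, because none of 10 trophectoderm markers was listed at 0 in either Pml group.

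In mice, germ cells are set aside in the early embryo, when signals from neighbouring tissue switch on PRDM1, PRDM14 and TFAP2C in a few epiblast cells. Genes for germ cell RNA regulation and meiosis are then derepressed as DNA methylation is erased. In ES cells, many of these genes are held down by a variant Polycomb complex with E2F6, MGA, MAX, L3MBTL2 and PCGF6, by the histone methyltransferases G9a and SETDB1, and by DNA methylation, yet some transcripts are still made. MGA and MAX bind the E-box CACGTG, and E2F6 binds E2F-type sites.

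Promoter windows are shown for the members whose start region holds the E-box, together with Dazl, which had the widest range by ratio among the members in the Trim33 table and whose window lacks it. RefSeq windows for GRCm38.p6, from 250 bases before to 50 after a transcription start, were matched for 7 of the 10 members (Mael, Stk31, Tex101, Prdm1, Sycp3, Ddx4 and Dazl; Stk31 has 2 windows). The 250 bases before the start are printed 5′ to 3′ on the gene's strand, with the E-box CACGTG and the E2F-type motif GCGGGA (searched on both strands, as TCCCGC on the other) in capitals. They lie at chr1:166238745-166238994 (minus strand), chr6:49395289-49395538 (plus), chr10:88459337-88459586 (plus), chr13:112652311-112652560 (minus) and chr17:50293621-50293870 (minus).
Mael: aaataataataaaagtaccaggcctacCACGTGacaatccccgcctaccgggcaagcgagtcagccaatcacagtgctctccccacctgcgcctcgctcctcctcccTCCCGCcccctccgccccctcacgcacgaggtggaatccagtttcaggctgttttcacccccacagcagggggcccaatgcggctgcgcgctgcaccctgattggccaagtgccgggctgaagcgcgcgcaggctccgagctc
Stk31: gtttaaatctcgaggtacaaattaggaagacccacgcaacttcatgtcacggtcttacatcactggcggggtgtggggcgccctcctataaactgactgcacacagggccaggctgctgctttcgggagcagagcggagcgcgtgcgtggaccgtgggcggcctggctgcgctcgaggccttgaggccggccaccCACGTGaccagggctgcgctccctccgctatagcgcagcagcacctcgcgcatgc
Sycp3: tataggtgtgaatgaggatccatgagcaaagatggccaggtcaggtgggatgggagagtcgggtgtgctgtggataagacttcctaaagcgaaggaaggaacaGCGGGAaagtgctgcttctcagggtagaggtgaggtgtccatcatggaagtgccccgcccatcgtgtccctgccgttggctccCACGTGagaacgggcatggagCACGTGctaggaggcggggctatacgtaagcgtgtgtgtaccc
Ddx4: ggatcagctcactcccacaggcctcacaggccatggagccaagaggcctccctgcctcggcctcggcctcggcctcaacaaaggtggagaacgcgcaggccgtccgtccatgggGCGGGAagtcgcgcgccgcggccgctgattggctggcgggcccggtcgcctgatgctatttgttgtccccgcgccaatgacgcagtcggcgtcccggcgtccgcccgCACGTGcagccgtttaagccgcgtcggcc
Dazl: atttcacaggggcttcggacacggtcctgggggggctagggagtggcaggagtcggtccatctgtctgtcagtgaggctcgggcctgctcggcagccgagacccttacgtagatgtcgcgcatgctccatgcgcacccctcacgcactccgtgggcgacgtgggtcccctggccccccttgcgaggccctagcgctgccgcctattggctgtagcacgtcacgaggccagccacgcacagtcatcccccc
The Mael E-box begins 223 bases before the start, those of Sycp3 64 and 43 bases before it, and that of Ddx4 29 bases before it. That of Stk31 begins 55 bases before the start of the printed window and 120 bases before the start of its other window. The E-box was thus in the windows of 4 of 7 members and in 7.15% of all 32851 windows. Counted by gene, 8.09% of all genes had it in any window. E2F-type motifs were in the windows of 3 of 7 members, Ddx4, Mael and Sycp3, and in 19.98% of all windows. The second E2F-type match of Mael begins 11 bases after the start and is not printed. Both motifs stood in 3 of 7 members and 1.99% of all windows, and no 2 motifs overlapped. For the E2F-type motif and for both motifs, the share over all was counted by window and not by gene. The windows of Dazl, Tex101 and Prdm1 hold neither motif. The members' windows have 15 (Sycp3) to 38 (Ddx4) CpG dinucleotides, against a median of 7 over all windows. Among windows with at least 15 CpG, 11.3% hold an E-box. These matches describe letters in a window and are not binding sites shown by these data.

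The 10 members were expressed at very different levels, and their order differed between tables. Dppa5a was the most abundant member in every library, at 4407 to 4640 FPKM in the Pml table, 1171 to 1927 RPKM in the arsenite table and 1301 to 2036 RPKM in the Trim33 table. Dppa4 came next in the Pml table, at 120.4 to 129.2 FPKM. Sycp3 stood at 18.9 to 24.2 FPKM in the Pml table, 49.0 to 116.9 RPKM in the arsenite table and 5.55 to 10.8 RPKM in the Trim33 table. Dppa3 was at 42.1 to 55.4 FPKM in the Pml table and 52.6 to 131.6 RPKM in the Trim33 table. In the arsenite table it was at 0.706 to 5.11 RPKM, with 5.11 and 3.55 in the untreated cells. At the low end, Tex101 ranged from 0.396 to 2.13 across all 16 libraries, which was about 16 to 110 reads in the arsenite and Trim33 libraries, where depth could be recovered. Dazl, Stk31 and Prdm1 lay mostly between 1 and 10. Stk31 was above Dazl by more than their spread in Pml wild type (2.29 ± 0.0669 against 1.88 ± 0.132 FPKM, SD, n = 2), and not with the WT label and activin A (2.06 ± 0.412 against 1.99 ± 0.469 RPKM).

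**Figure D1:**
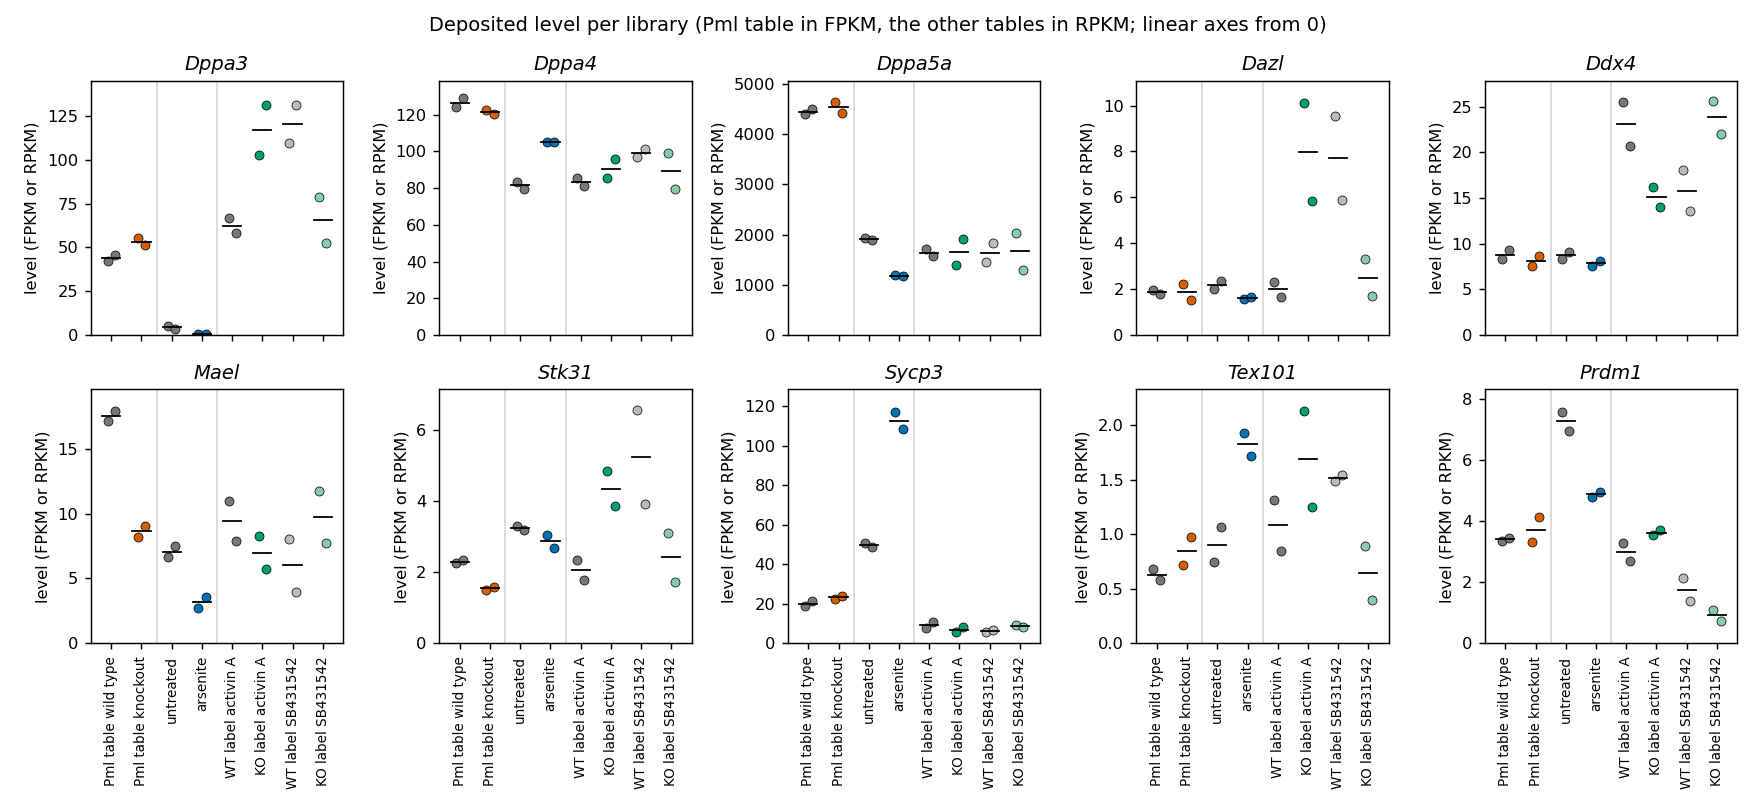
Level of each member in every library (y axis, FPKM for the Pml groups and RPKM for the others, linear from 0) by group (x axis). Points are libraries, lines are group means of 2, and vertical grey lines separate tables that were normalised apart. Mael is lower in both Pml knockout libraries, Sycp3 is higher in both arsenite libraries, and Dazl and Dppa3 are higher in the groups labelled KO with activin A and WT with SB431542.

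Mael was the member that differed most in the Pml knockout. It encodes an HMG-box protein of the piRNA pathway, which silences transposons in germ cells, and lies at chr1:166201201-166238747 (GRCm38, minus strand, 11 exons in its longest transcript). Wild-type libraries had 17.2 and 17.9 FPKM, and knockout libraries 8.21 and 9.05, so both knockout libraries were well below both wild-type ones. The difference was -0.95 ± 0.08 (log2(value + 1), ± SE; limma adjusted p = 4.44e-05), and the wild-type mean was 2.03 times the knockout mean. Stk31, which encodes a germ cell protein with a Tudor and a kinase domain, fell from 2.24 and 2.34 FPKM to 1.504 and 1.60. Its difference was -0.37 ± 0.11 (limma adjusted p = 0.0264), and it did not pass when any 1 of the 4 libraries was left out (adjusted p 0.0624 to 0.1099) or with no filter on low values (0.0571). Dppa3 rose, from 42.1 and 45.9 FPKM to 55.4 and 51.3, a difference of 0.27 ± 0.06 (limma adjusted p = 0.0117), which did not pass without the knockout's replicate 1 (adjusted p = 0.0607) or with no filter on low values (adjusted p = 0.0654).

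Among the 9 members tested in the Pml table, 1 was thus higher and 2 were lower. Over all 11648 genes tested, 16.6% were higher and 18.9% lower, so the members' share was near that of all genes. Their median difference was -0.01, beside -0.02 over all genes. The meiotic gene Sycp3, which encodes a component of the lateral element of the synaptonemal complex, measured 18.9 and 21.3 FPKM in wild-type libraries, against 22.3 and 24.2 in knockout ones (0.20 ± 0.08, limma adjusted p = 0.0737). It passed without wild-type replicate 2 (adjusted p = 0.0218) and without knockout replicate 1 (adjusted p = 0.0481). Dppa4, Dppa5a, Dazl, Ddx4 and Prdm1 differed by between -0.11 and 0.09 and did not pass. Tex101 measured 0.681 and 0.582 FPKM in wild-type libraries, against 0.719 and 0.979 in knockout ones, below the minimum of 1 in 2 libraries, and was not tested.

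Among germ cell genes outside the set, more were lower than higher in the Pml knockout, where 16.6% of all genes tested were higher and 18.9% lower. Of 21 genes of meiotic chromosomes listed, 12 were tested, and 8 were lower and 0 higher. They include Stra8, the retinoic acid-induced gatekeeper of meiotic entry (-1.63 ± 0.14, limma adjusted p = 5.33e-05), and Stag3, a meiotic cohesin subunit (-1.06 ± 0.09, adjusted p = 7.04e-05). Of 10 tested piRNA pathway genes, 2 rose and 4 fell. Those that fell include Piwil2, a PIWI protein (-0.78 ± 0.11, adjusted p = 0.00117), and Mov10l1, the helicase that makes piRNA precursors available (-0.75 ± 0.12, adjusted p = 0.00200). The 2 that rose were Tdrd7 (0.226 to 1.29 FPKM in means of 2, 0.90 ± 0.14, adjusted p = 0.00184) and Tdrd5 (0.54 ± 0.11, adjusted p = 0.00589). Tdrd7 needed the knockout group, where it was high, to be tested, so only a rise could be called. Of 12 other germ cell genes tested, 1 rose and 8 fell, with Tex19.1 at 48.4 FPKM in wild type and 26.98 in the knockout (means of 2). The list of germ cell specification had 6 of 11 higher and 2 lower. In it, Ifitm1 rose by 0.62 ± 0.05 (adjusted p = 3.53e-05) and Nanos3, an RNA-binding protein that germ cells need to survive, by 0.54 ± 0.13 (adjusted p = 0.0126), while Prdm14 fell by 0.54 on the log2 scale (adjusted p = 0.00160).

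Markers of several other cell types moved with the same groups, and those of primitive endoderm were split. All 8 tested trophectoderm markers were higher in the Pml knockout, and their summed level over 10 genes was 37.7 to 40.9 FPKM in wild type and 713 to 722 in the knockout. Of these, Cdx2 averaged 0.711 FPKM in wild type and 13.4 in the knockout. It thus needed the knockout group, where it was high, to be tested. The 10 fibroblast markers summed to 108 to 110 FPKM in wild type and 539 to 569 in the knockout, with 7 of 8 tested higher and 1 lower, and Postn and Lum were listed at 0 in wild type. The 11 markers of 2-cell-like cells, a rare state in ES cell cultures, summed to 5.84 to 5.99 FPKM in wild type and 22.6 to 24.2 in the knockout. Of 6 tested primitive endoderm markers, 2 were higher and 3 lower, and all 3 tested mesendoderm markers were higher. The 10 ES cell markers summed to 3876 to 3935 FPKM in wild type and 3538 to 3571 in the knockout, with 1 higher and 5 lower. Over all genes tested, 16.6% were higher and 18.9% lower. The part of these cells in the members' differences was not tested, and in bulk samples fewer cells of a type and less RNA per cell cannot be told apart. Markers of spermatogonia and testis were at 3.95 to 4.94 FPKM in sum, and Prm1, Prm2 and Tnp1, the chromatin proteins of spermatids, were listed at 0 in both groups.

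With arsenite, Dppa3 and Mael fell and Sycp3 rose. Dppa3, which protects maternal chromatin from loss of DNA methylation and marks the earliest germ cells (chr6:122626410-122630272, plus strand, 4 exons), was at 5.11 and 3.55 RPKM in untreated cells and 0.706 and 0.791 with arsenite. The untreated mean was 5.79 times that with arsenite, and the difference was -1.59 ± 0.14 (limma adjusted p = 5.45e-05), with about 27 to 207 reads behind these values. Dppa3 reached the minimum of 1 in 2 libraries only through the untreated group, so it could be tested only because it was high there. With no filter on low values its adjusted p was 0.00324, and with the stricter filter or without either untreated library it was not tested. Mael was at 6.64 and 7.49 RPKM in untreated cells and 2.75 and 3.56 with arsenite, and it fell by 0.96 on the log2 scale (SE 0.11, limma adjusted p = 1.98e-04). Sycp3 moved the other way, from 51.1 and 49.0 RPKM to 116.9 and 108.3. Both arsenite libraries were more than double either untreated one, and the difference was 1.15 ± 0.05 (limma adjusted p = 1.42e-06).

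Sycp3 (chr10:88459569-88473236, plus strand, 8 exons) overlaps Chpt1, an enzyme gene of phosphatidylcholine synthesis on the opposite strand, over 660 of the 1169 exon bases of its longest transcript. No source used here says if strand was taken into account in counting, so reads of the 2 genes in that stretch cannot be told apart. Chpt1, chosen for this overlap after its values were seen, was at 3.17 ± 0.122 RPKM in untreated cells and 3.34 ± 0.0402 with arsenite (0.06 ± 0.08, limma adjusted p = 0.563).

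The 3 Dppa genes, named for developmental pluripotency, did not move together. Dppa4 (chr16:48283733-48294237, plus strand, 7 exons) encodes a SAP-domain chromatin protein that works with DPPA2. It rose from 83.2 and 79.8 RPKM to 105.2 and 104.9 with arsenite (0.36 ± 0.04, limma adjusted p = 1.15e-04). Dppa5a (chr9:78367052-78368177, minus strand, 3 exons), which encodes a KH-domain protein, fell from 1927 and 1895 RPKM to 1185 and 1171 (-0.70 ± 0.04, limma adjusted p = 7.83e-06). The groups did not overlap in either gene, but the same held for every member with arsenite, including Ddx4 and Stk31, which did not pass. The share over all genes was not counted. The ratio of Dppa3 to Dppa4 within a library was accordingly 0.0615 and 0.0445 in untreated cells and 0.00671 and 0.00754 with arsenite. Part of each transcript is repeated elsewhere: 16.5% of the 50-base words of Dppa3, 31.3% of those of Dppa4 and 38.6% of those of Dppa5a also occur in other annotated genes, mostly pseudogenes and near copies. Their levels are to that extent uncertain. The other 7 members share no such word.

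Of the other 5 members, Prdm1 and Dazl fell and Tex101 rose. Prdm1, the zinc-finger repressor that starts the germ cell programme (chr10:44437177-44528501, minus strand, 8 exons), was at 7.57 and 6.96 RPKM in untreated cells and 4.80 and 4.96 with arsenite (-0.49 ± 0.08, limma adjusted p = 8.55e-04). Tex101 (chr7:24668007-24676675, minus strand, 7 exons), which encodes a membrane-anchored germ cell glycoprotein, rose from 0.743 and 1.07 RPKM to 1.93 and 1.72 (0.57 ± 0.12, limma adjusted p = 0.00381). It passed the minimum of 1 in 2 libraries through the arsenite group and 1 untreated library, and it missed the threshold after quantile normalization (0.30, adjusted p = 0.0519). Dazl, which encodes an RNA-binding protein that controls translation in germ cells, was at 1.99 and 2.34 RPKM and then at 1.58 and 1.64 (-0.28 ± 0.10, limma adjusted p = 0.0419). That call was lost without the column C-2 of untreated cells (adjusted p = 0.186), without arsenite replicate 1 (0.171) or 2 (0.129), and with no filter on low values (0.0810). Ddx4 and Stk31 did not pass (-0.14 ± 0.07, limma adjusted p = 0.132, and -0.13 ± 0.09, adjusted p = 0.225). After TMM scaling Ddx4 passed as lower (-0.21, adjusted p = 0.0321), as it did after quantile normalization (-0.28, adjusted p = 0.00898), where Stk31 also passed (-0.33, adjusted p = 0.0152).

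In all, 3 of 10 members were higher with arsenite and 5 were lower, while 40.7% of the 12136 genes tested were higher and 27% lower. The members' median difference was -0.21, beside 0.08 over all genes. The split of all calls depends on the scaling: 60.1% of called genes were higher in the deposited values, 50.9% after TMM scaling and 49.0% after quantile normalization.

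**Figure D2:**
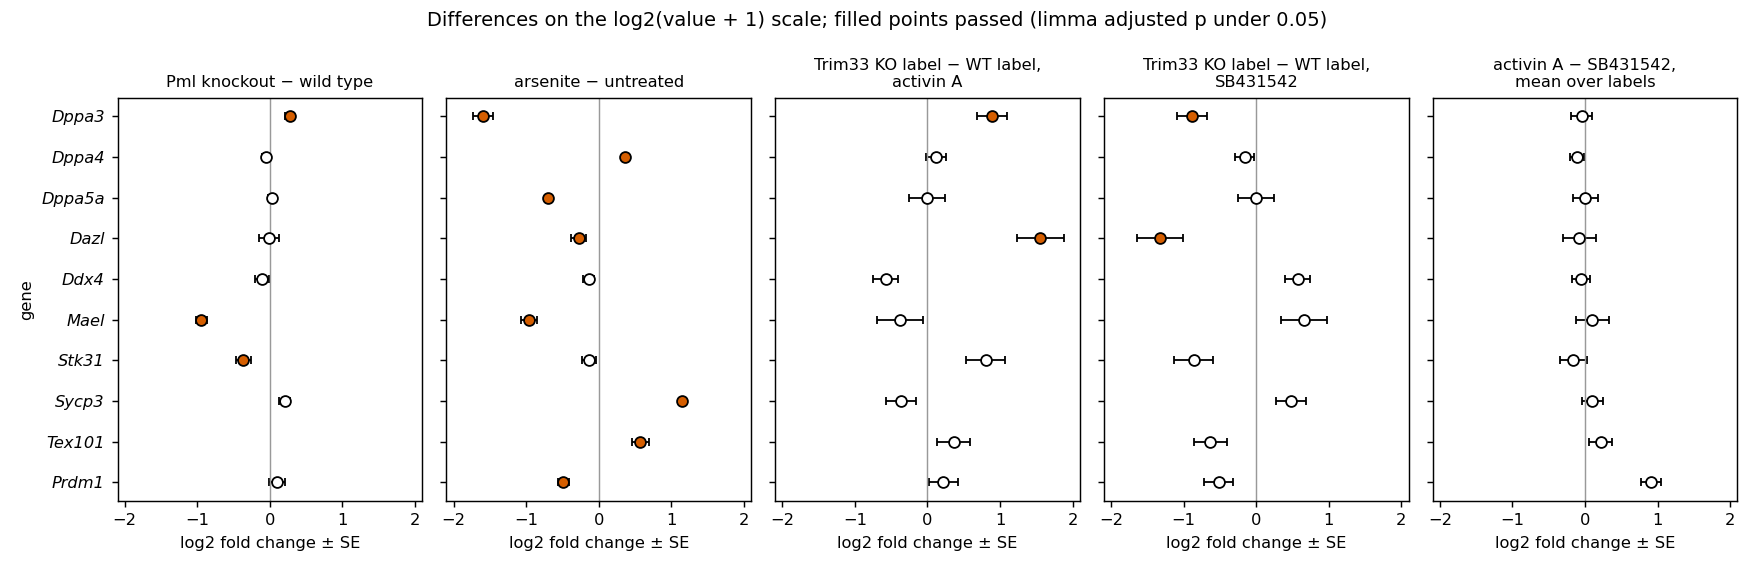
Difference of each member in 5 comparisons (x axis, log2(value + 1) ± SE from limma; y axis, gene). Filled points passed at an adjusted p under 0.05, and Tex101 has no point for Pml because it was not tested. Mael lies left of 0 for both Pml knockout and arsenite, and the points of the 2 comparisons of Trim33 labels mirror each other.

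Germ cell genes outside the set were split with arsenite, with which 40.7% of all genes tested were higher and 27% lower. The piRNA list had 8 higher and 2 lower of 11 tested, with Piwil2 at 0.94 ± 0.07 (limma adjusted p = 2.46e-05) and Tdrd12, a Tudor-domain protein of the pathway, at -0.82 ± 0.07 (adjusted p = 5.19e-05). Mael, of the same pathway, thus fell while most of the tested piRNA genes rose. The meiotic list had 1 higher and 8 lower of 11. The one higher was Rec8, the meiotic cohesin (1.45 ± 0.07, adjusted p = 2.28e-06), and Stra8 was lower (-1.87 ± 0.20, adjusted p = 1.43e-04). Sycp1, which encodes the transverse filament that joins the lateral elements, did not pass (-0.18 ± 0.10, adjusted p = 0.138).

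The germ cell specification list had 9 of 11 lower and 2 higher. The lower ones include Prdm14 (12.7 to 0.615 RPKM in means of 2, -3.09 ± 0.08, limma adjusted p = 2.72e-07) and Tfap2c (-0.42 ± 0.04, adjusted p = 5.28e-05). Prdm14 averaged below 1 with arsenite, so it needed the untreated group, where it was high, to reach the minimum. Ooep, a maternal-effect gene of the subcortical maternal complex, was also lower (-1.35 ± 0.07, adjusted p = 3.42e-06), and Dppa2, the partner of Dppa4, was higher (0.17 ± 0.04, adjusted p = 0.00640). Of the 10 ES cell markers, 9 fell and 1 rose, and their sum went from 3617 to 3669 RPKM in untreated cells to 1667 to 1775 with arsenite. All 7 tested trophectoderm markers rose, from 38.4 to 38.9 RPKM in sum to 121 to 123. Of these, Gata3 averaged 0.381 RPKM in untreated cells and 5.68 with arsenite. It thus needed the arsenite group, where it was high, to be tested. Markers of other cell types rose as well. Of primitive endoderm markers 5 of 7 tested rose and 1 fell, and of fibroblast markers 4 of 5 rose and 1 fell. Of mesendoderm markers 2 of 2 rose, and of spermatogonia and testis markers 2 of 2 fell. Over all genes tested, 40.7% were higher and 27% lower. The part of these markers in the members' differences was not tested.

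With activin A, the libraries labelled Trim33 KO had more Dazl and more Dppa3 than those labelled WT, and these labels match the Trim33 level. Dazl (chr17:50279395-50293636, minus strand, 11 exons) was at 2.32 and 1.65 RPKM with the WT label and at 10.1 and 5.83 with the KO label, a ratio of means of 4.01. Both KO-labelled libraries lay above both WT-labelled ones, though they differed from each other, and the difference was 1.55 ± 0.32 (limma adjusted p = 0.0209). Dppa3 was at 66.6 and 58.3 RPKM with the WT label and at 102.7 and 131.6 with the KO label (0.89 ± 0.20, limma adjusted p = 0.0305). Both calls rest on few libraries. Dppa3 missed the threshold when any 1 of the 4 activin A libraries was left out (adjusted p 0.0679 to 0.191). Dazl missed it without KO replicate 1 (adjusted p = 0.129), WT replicate 1 (0.0769) or WT replicate 2 (0.145), and with no filter on low values neither passed (Dppa3 0.0769, Dazl 0.0648).

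Stk31, Ddx4, Dppa4 and Prdm1 did not pass, although their groups did not overlap. The share of all genes whose groups do not overlap was not counted, so this is a description only. Stk31 (chr6:49395604-49469501, plus strand, 24 exons) was at 2.35 and 1.77 RPKM with the WT label and 4.82 and 3.86 with the KO label (0.80 ± 0.27, limma adjusted p = 0.0937). Ddx4 encodes the DEAD-box helicase VASA, a component of germ granules (chr13:112598333-112652475, minus strand, 22 exons). It was at 25.5 and 20.7 RPKM with the WT label and lower, at 16.2 and 14.0, with the KO label (-0.58 ± 0.17, limma adjusted p = 0.0721). In a fit of the 4 activin A libraries alone, added after the data were seen, both passed (Stk31 adjusted p = 0.0220, Ddx4 adjusted p = 0.0324). Mael, Sycp3, Tex101, Prdm1, Dppa4 and Dppa5a differed by between -0.38 and 0.36 and did not pass. Of the 10 members, 2 were higher and 0 lower, against 6.61% and 2.82% of 11914 genes. Their median difference was 0.17, beside 0.01 over all genes.

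With SB431542, the differences of all members but Dppa5a, which was near 0 in both, took the opposite sign by label, as Trim33 itself did. Dazl was at 9.54 and 5.87 RPKM with the WT label and 3.29 and 1.68 with the KO label (-1.33 ± 0.32, limma adjusted p = 0.0360). Dppa3 was at 109.8 and 131.3 RPKM with the WT label and 78.7 and 52.6 with the KO label (-0.89 ± 0.20, limma adjusted p = 0.0301). These 2 members were lower by label and 0 were higher, against 6.55% of all genes lower and 3.01% higher. Neither call was firm. Dppa3 missed the threshold without KO replicate 2 (adjusted p = 0.106) and without WT replicate 1 (0.0752) or 2 (0.126), and Dazl without KO replicate 2 (0.136) and without WT replicate 1 (0.186). Both also missed it without either WT-labelled activin A library, which enters only through the shared spread (0.0510 to 0.0555), and with no filter on low values (0.0754 and 0.0945), and Dazl after quantile normalization (0.0528). Stk31 was at 6.54 and 3.90 RPKM with the WT label and 3.09 and 1.73 with the KO label, and Ddx4 at 18.0 and 13.6 and then 25.6 and 22.0. Neither passed (limma adjusted p = 0.0790 and 0.0757). Sycp3, at 5.55 and 6.54 RPKM with the WT label and 9.20 and 8.39 with the KO label, and Tex101, at 1.49 and 1.55 and then 0.890 and 0.396, had groups that did not overlap and did not pass either. The same was true of Prdm1, at 2.13 and 1.40 RPKM with the WT label and 1.11 and 0.733 with the KO label (limma adjusted p = 0.138).

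The difference between the genotype-label effects under the 2 treatments was tested as an interaction, and 4 members passed. These were Dazl (2.88 ± 0.45, limma adjusted p = 0.0026), Dppa3 (1.78 ± 0.29, adjusted p = 0.0030), Stk31 (1.67 ± 0.38, adjusted p = 0.0129) and Ddx4 (-1.15 ± 0.25, adjusted p = 0.0103). That is 3 higher and 1 lower, against 16.1% and 10.1% of all genes. Stk31 missed the threshold without the WT-labelled activin A replicate 2 (adjusted p = 0.0520). In each of the 4 genes the groups labelled KO with activin A and WT with SB431542, where Trim33 was at 2.44 to 2.94 RPKM, lay on one side of the other 2 groups, where it was at 18.3 to 24.6. Dazl levels were 5.83 to 10.1 RPKM in the former 4 libraries and 1.65 to 3.29 in the latter 4. Ddx4 had the reverse order, at 13.6 to 18.0 and 20.7 to 25.6 RPKM. The within-library ratio of Dazl to Ddx4 was 0.417 to 0.625 in the former and 0.0761 to 0.129 in the latter.

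**Figure D3:**
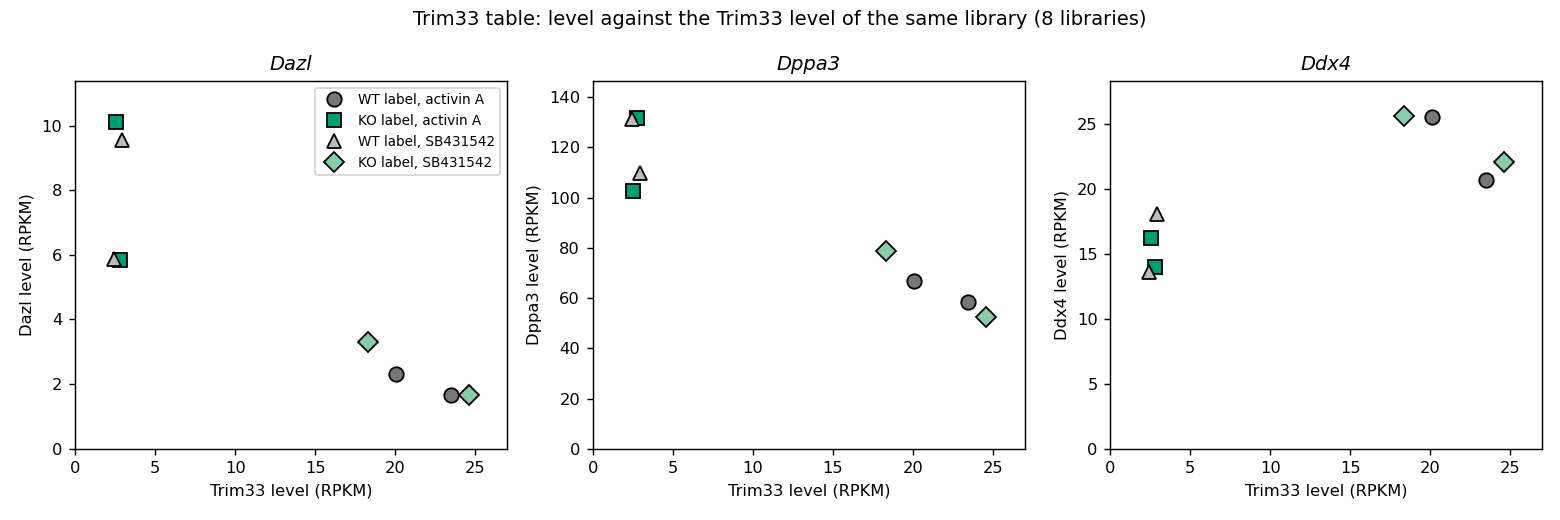
Levels of Dazl, Dppa3 and Ddx4 (y axes, RPKM, linear from 0) against the Trim33 level of the same library (x axis, RPKM) in the 8 libraries of the Trim33 table, with markers for label and treatment. The libraries labelled WT with SB431542 sit at low Trim33 beside those labelled KO with activin A, with Dazl at 5.83 to 10.1 and Ddx4 at 13.6 to 18.0.

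Some other measures moved with the same libraries. The 11 markers of 2-cell-like cells summed to 9.80 to 25.0 RPKM with the KO label and activin A and to 9.88 to 25.1 with the WT label and SB431542. They summed to 0.139 to 0.242 with the WT label and activin A, where 7 of them were listed at 0, and to 0.127 to 0.230 with the KO label and SB431542, where 6 were. Pml was at 20.2 and 23.1 RPKM with the KO label and activin A, 21.6 and 24.8 with the WT label and SB431542, and 29.2 to 38.3 in the other 4 libraries. The 10 trophectoderm markers summed to 165 to 249 RPKM in the former 4 libraries and 131 to 179 in the latter. These ranges overlapped. The summed ES cell markers also overlapped, at 2297 to 2547 and 2235 to 2751. Single markers did differ in the interaction, where 16.1% of all genes were higher and 10.1% lower. Of 8 tested trophectoderm markers 4 were higher and 0 lower, with Hand1 at 8.30 RPKM in the former and 1.22 in the latter (means of 4). Of 7 tested fibroblast markers 4 were higher and 0 lower, with Col1a1 at 14.6 and 2.50. Primitive endoderm markers had 1 of 5 higher and 0 lower, and mesendoderm markers 0 of 3 higher and 1 lower. Of the 10 ES cell markers 2 were higher and 3 lower. In means of 4, Zfp42 was at 85.5 RPKM in the former and 37.5 in the latter, and Nanog at 246 and 114. Tdgf1, at 469 and 642, and Klf4, at 29.5 and 46.3, had the reverse order. The part of these in the members' differences was not tested.

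Of the related lists with activin A, the 15 tested other germ cell genes had 5 higher and 0 lower by Trim33 label, where 6.61% of all genes tested were higher and 2.82% lower. They include Zp3, an egg coat protein gene (1.57 ± 0.20, limma adjusted p = 0.00336), and Tex14, a gene for the bridges between germ cells (1.68 ± 0.26, adjusted p = 0.00759). The meiotic list had 2 of 12 higher and 0 lower, Spata22 (1.64 to 16.3 RPKM in means of 2, 2.72 ± 0.15, adjusted p = 1.00e-04) and Hormad2 (1.30 ± 0.20, adjusted p = 0.00721). The piRNA list had 2 higher and 1 lower of 10, with Tdrd12 at 1.11 ± 0.15 (adjusted p = 0.00384). Among 17 repressors of germ cell genes 3 were lower and 0 higher. These were Cbx3, which encodes HP1γ (-0.53 ± 0.11, adjusted p = 0.0227), Ring1, a Polycomb ubiquitin ligase (-0.73 ± 0.16, adjusted p = 0.0285), and E2f6 (-0.62 ± 0.14, adjusted p = 0.0313). Of 8 DNA methylation genes, Dnmt3b, a de novo methyltransferase, was lower (-0.87 ± 0.12, adjusted p = 0.00422) and 0 were higher.

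The same repressors were also counted in the other tables. In the Pml knockout (16.6% of all genes higher, 18.9% lower) 2 of 17 rose and 6 fell, with E2f6 higher (0.35 ± 0.07, limma adjusted p = 0.00497) and Pcgf6 lower (-0.32 ± 0.06, adjusted p = 0.00456). With arsenite (40.7% of all genes higher, 27% lower) 3 of 17 rose and 8 fell, with Ehmt2, which encodes G9a, higher (0.64 ± 0.04, adjusted p = 7.88e-06) and Pcgf6 lower (-0.69 ± 0.04, adjusted p = 8.97e-06). Of the DNA methylation genes, 5 of 9 fell and 0 rose in the Pml knockout, where Uhrf1, the factor that brings DNMT1 to replicated DNA, differed by -0.56 ± 0.05 (adjusted p = 6.09e-05). With arsenite 3 of 8 rose and 3 fell, read against the same shares.

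**Figure D4:**
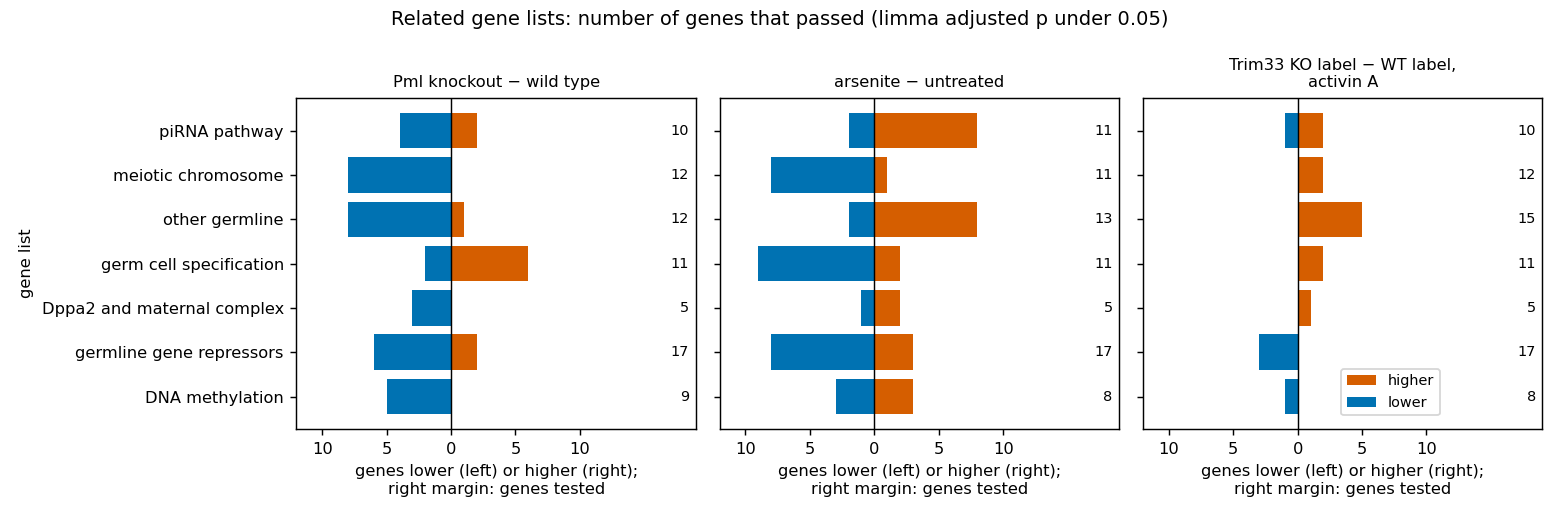
Number of genes that passed (limma adjusted p under 0.05) in 7 lists related to germ cell genes (x axis, lower to the left and higher to the right; y axis, list), in 3 comparisons, with the number tested at the right margin. The meiotic list has 8 lower genes in both the Pml knockout and arsenite, and the piRNA list has 8 higher with arsenite.

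Activin A against SB431542, averaged over the genotype labels so that their order does not matter, moved no member past the threshold. Over all genes, 13 of 11914 (0.109%) passed in limma, and 361 had an unadjusted p under 0.05. Prdm1 came nearest, with an unadjusted p of 1.20e-04. It was at 3.54, 3.71, 3.28 and 2.68 RPKM in the activin A libraries and 1.11, 0.733, 2.13 and 1.40 in the SB431542 libraries, so the 2 treatments did not overlap (0.91 ± 0.14, limma adjusted p = 0.0716). The other 9 members overlapped between treatments and differed by between -0.16 and 0.21.

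Members also differed in how they varied together over the 16 libraries, on the log2(value + 1) scale with each table's mean removed. Libraries of a table share a normalization and the groups described above, so these correlations are descriptions. Dazl and Stk31 varied most alike (Pearson r = 0.922), followed by Dppa3 and Dppa5a (r = 0.727) and Ddx4 and Mael (r = 0.705). Dppa3 and Sycp3 varied most oppositely (r = -0.804). Of 10868 genes that reached 1 in 2 libraries of every table, those with Gm, Rik or LOC names were left out of the ranking. Among the rest, those most like Dppa3 were H3f3b (r = 0.962), Ooep (r = 0.961) and Tcl1 (r = 0.959). For Dazl they were Fam169b, Slc35g1 and Tm7sf3 (r = 0.975 to 0.968), for Stk31 Mreg, Mylpf and Mks1, for Ddx4 Pgm2, Slc2a1 and Usp14, and for Mael Hnrnpdl, Slc25a40 and Gfpt2. Those nearest to Sycp3 were Igbp1, Bcap31 and Igdcc4, to Dppa4 Serpinb6a, Alox5ap and Fabp3, and to Dppa5a Rpl8, Rpl35a and Anp32b. Prdm1 had the weakest likeness, with Zfp819 (r = 0.916), Rara and Plekhf2. Tex101 did not reach the minimum in the Pml table and was not compared.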

How the data were processed

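ES cell RNA was sequenced after preparation with an Illumina TruSeq kit, per the labels' protocols. Tools listed in the submitters' processing notes are Bowtie2 2.3.3, featureCounts 2.0.1, SAMtools 1.9, FastQC 0.11.5 and DESeq2, with the build mm10 and no role given for any. Values of the Pml table were deposited by the authors as FPKM, and those of the arsenite table were deposited as RPKM. The unit of the Trim33 table is not named, and its deposited values behave as RPKM. Samples were matched to columns by name. The untreated columns of the arsenite table (C-1, C-2) carry another letter than the sample titles and were matched as a group. No other column held values per sample.

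To recover depth, low values of 2282 single-exon genes with RefSeq lengths were compared with whole reads. Of these, 93.0% to 94.7% (arsenite) and 90.2% to 93.7% (Trim33) were whole within 0.05 reads, which gives 46700000 to 48500000 and 31200000 to 39500000 reads per library. The share was 22.4% to 26.1% for Pml, whose depth is unknown. Reads per gene are approximate, from the longest transcript.

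Values were tested as log2(value + 1), which understates the change of low genes, with limma 3.58.1 in R 4.3.3 (with an intensity trend). Tests were two-sided, p-values were adjusted by Benjamini-Hochberg over all genes that reached 1 in 2 libraries of the table, and a call was made under 0.05. A gene can pass that minimum through the group where it is high, which favours calls in that direction. How many of all genes have groups that do not overlap was not counted, so any lack of overlap is a description. The Pml and arsenite tables were each fitted alone (2 residual degrees of freedom) and the Trim33 table as 4 group means (4 residual degrees of freedom), in 6 comparisons. Date-like names, 27 per table, were left out. The fit was tested on simulated data. Levels are means ± SD of deposited values. Members, lists and tests were chosen with earlier results of these data known, so no count over a list is independent support. Named genes are all members, Pml, Trim33 and Eif2s3y, up to 4 genes per list with the smallest p, the partners Dppa2, Ooep, Khdc3, Prdm14, Tfap2c, Sycp1, Sycp2 and Piwil2, and the 3 genes most like each member. Coordinates come from GENCODE for GRCm38, the same assembly as mm10. Alternatives were another pseudocount (0.1), no filter and a stricter filter (5), TMM scaling (trimmed mean of M-values, computed on the deposited values), quantile normalization, no intensity trend, a replicate block and leaving out each library. Python 3.11.15 with pandas 2.3.3 and matplotlib 3.10.9 was used for levels, promoters and figures.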

Additional observations from a re-analysis of the deposited data

Results flagged for a closer look

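The genotype-label difference with activin A minus that with SB431542, tested as an interaction in limma over the 8 libraries of the Trim33 table, differed between the treatments in 4 members. It was 1.78 on the log2(value + 1) scale in Dppa3, 2.88 in Dazl, -1.15 in Ddx4 and 1.67 in Stk31. The effect by label had opposite signs under the treatments in each of these genes. Trim33 itself had the same reversal by label, at 2.53 and 2.79 RPKM with the KO label and activin A and 18.3 and 24.6 with the KO label and SB431542. In the same interaction Trim33 was at -5.23 and Eif2s3y at -10.5 on the log2(value + 1) scale. The contrast thus also sets the libraries low in Trim33 against those high in it.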

How the results depend on the processing

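Over 798 combinations of a member, a comparison and an alternative setting, 703 kept direction and side of the threshold, 34 lost a call, 24 gained one, and 37 changed sign with no call on either side. Without a filter on low values, the Pml members higher and lower were 0 and 1, the members higher by Trim33 label with activin A 0, the members lower with SB431542 0, and the genes called for activin A against SB431542 8. With the stricter filter, which removes low members from the test, the Pml members lower were 1 and the arsenite members lower 3. After quantile normalization 1 member was lower by label with SB431542. That scaling also set the higher share of calls by label at 57.9% with activin A (70.1% otherwise), 41.7% with SB431542 (31.5%) and 49.5% for the interaction (61.5%). The activin A libraries alone gave 1852 calls and 1 member lower, and the SB431542 libraries alone 608 calls. The other causes were not tested.

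The labels do not say that replicate numbers pair libraries, and same-numbered libraries correlated at 0.02 in the Pml table and between -0.14 and 0.60 in the Trim33 table. With the replicate block, the Pml members higher were 2 (Sycp3 adjusted p = 0.0400). With the same block, by label 3 members were higher and 1 was lower with activin A, where Stk31 (adjusted p = 0.0217) and Ddx4 (0.0181) now passed. With SB431542 2 were higher and 3 lower, where Stk31 (0.0171), Ddx4 (0.0177) and Mael (0.0327) now passed. In addition, activin A against SB431542 called 23 genes with 1 member higher (Prdm1 adjusted p = 0.0476), and the interaction had 5 members higher and 3 lower. A block in the arsenite table was not run because its untreated columns carry no number shared with the titles.

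Leaving out 1 library at a time gave 1 to 2 Pml members higher and 1 lower, and 3 to 4 arsenite members lower. By Trim33 label with activin A it gave 185 to 1546 calls (1123 otherwise) and 0 to 2 members higher. The lowest 4 counts, 185 to 355, each left out an activin A library (KO replicate 1 218, KO replicate 2 355, WT replicate 1 264, WT replicate 2 185). With SB431542 it gave 294 to 1036 calls (1139 otherwise, 673 without KO replicate 2, 294 and 514 without WT replicate 1 and 2) and 0 to 3 members lower. Activin A against SB431542 had 7 to 16 calls. The interaction had 1853 to 3395 calls (3129 otherwise), 2 to 4 members higher and 1 to 2 lower. Where a group kept 1 library, it was assumed to vary like the others.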
